A study of Homo sapiens with 18 samples.

Results

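The siRNA by OHT interaction at 48 h asks whether Myc activation changed each transcript by the same factor in cells with and without RAD21. It was taken from 10 of the 18 RNA-seq libraries of the study, all U2OS-MycER cells, a human osteosarcoma line transduced with a retrovirus that encodes Myc fused to the hormone-binding part of the oestrogen receptor. 4-hydroxytamoxifen (OHT) brings this fusion protein into action. The cells received siRNA and OHT, or ethanol in its place, at the same time. The 4 groups were siCtrl cells, which received a non-targeting siRNA and ethanol (3 libraries), siCtrl OHT cells, which received the same siRNA and 400 nM OHT (3 libraries), siRAD21 cells, which received an siRNA against RAD21 and ethanol (2 libraries), and siRAD21 OHT cells, which received that siRNA and 400 nM OHT (2 libraries). All of them carried MycER and their own MYC gene, so no group is free of Myc, and RAD21 was depleted, not deleted. Whether the line is 1 clone is not given in the sources used here. The other 8 libraries are the same 4 groups at 24 h.

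Cohesin is a ring that holds sister chromatids together and extrudes chromatin loops, and RAD21 is the subunit that closes the ring. Myc is a transcription factor that binds with MAX to E-boxes and drives genes of ribosome production, metabolism and the cell cycle. At the entry to S phase, E2F factors switch on the genes that license and copy DNA.

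Levels were eRPKM, that is reads on exons scaled to transcript length and to the total of such reads in the library. Of the 23399 genes in the table, 14993 had a mean of at least 1 eRPKM and were tested. The values came from 9647501 to 10912005 reads per library at 48 h. RAD21 itself, the targeted gene, stood at 93.3, 96.9 and 89 eRPKM in siCtrl cells, 89.1, 96.3 and 96.2 in siCtrl OHT cells, 11.2 and 11.3 in siRAD21 cells and 11.1 and 11.1 in siRAD21 OHT cells. All 4 siRAD21 libraries were far below all 6 siCtrl libraries, and the interaction of RAD21 was -0.03 ± 0.07 log2 (SE, adjusted p = 0.799, limma), from siRAD21 effects of -2.99 without and -3.02 with OHT. The siRAD21 OHT libraries differed from each other by no more than the sampling noise of their reads (chi-square of 0.979 per gene). The other pairs had 1.04 to 4.24, and the siRAD21 pair at 24 h was the one at 1.04. The reads of the siRAD21 OHT pair at 48 h are not the same set, with 120 and 141 in L1CAM, for example. The pair may still be 1 library sequenced again. In that case 1 arm of every interaction at 48 h has a single replicate and its error is understated. The SEs and adjusted p-values below come from a fit that holds both libraries, and a fit with the pair averaged into 1 sample is given beside the counts. VIM, SPARC, THY1 and COL1A1 were high in all 10 libraries, KRT8 and KRT18 as well, while COL1A2 and IBSP, other genes of bone-forming cells, were at or near 0 and no blood cell marker reached 1 eRPKM. In bulk RNA, fewer cells of a kind (cells in S phase, for example) and less RNA per cell cannot be told apart.

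For each gene the interaction is the OHT effect in siRAD21 cells minus the OHT effect in siCtrl cells, on the log2(eRPKM + 0.5) scale, which understates changes of low genes. A value above 0 means that OHT raised the gene more, or lowered it less, when RAD21 was depleted. Genes were called at an adjusted p below 0.05 (limma, Benjamini-Hochberg) and an interaction past 0.5. There were 1094 such genes, 7.3% of those tested, of which 499 (3.33%) were higher and 595 (3.97%) lower. With the siRAD21 OHT libraries averaged into 1 sample the count was 825, 409 higher and 416 lower, and 823 of these were genes called in the same direction before. Of the 65 genes named by rule, TNFAIP6, SAMD9L, L1CAM and IGFBP4 lost their call in that fit. The interaction was called in the same way under every one of 10 fits that left out a library, and with these libraries averaged, for 595 genes, 291 higher and 304 lower.

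Responses to OHT ran along the same direction with and without RAD21. Across the 14993 genes, which are not independent replicates, the OHT effect in siCtrl cells and that in siRAD21 cells, which share no library, had a Pearson r of 0.745 and a Spearman rho of 0.764. The spread was wider with depletion, with an SD over genes of 0.449 log2 in siCtrl cells and 0.581 in siRAD21 cells. OHT changed 2684 genes (17.9%) in siCtrl cells, 1166 higher (7.78%) and 1518 lower (10.1%). In siRAD21 cells it changed 4281 (28.6%), 1853 higher (12.4%) and 2428 lower (16.2%).

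**Figure D1:**
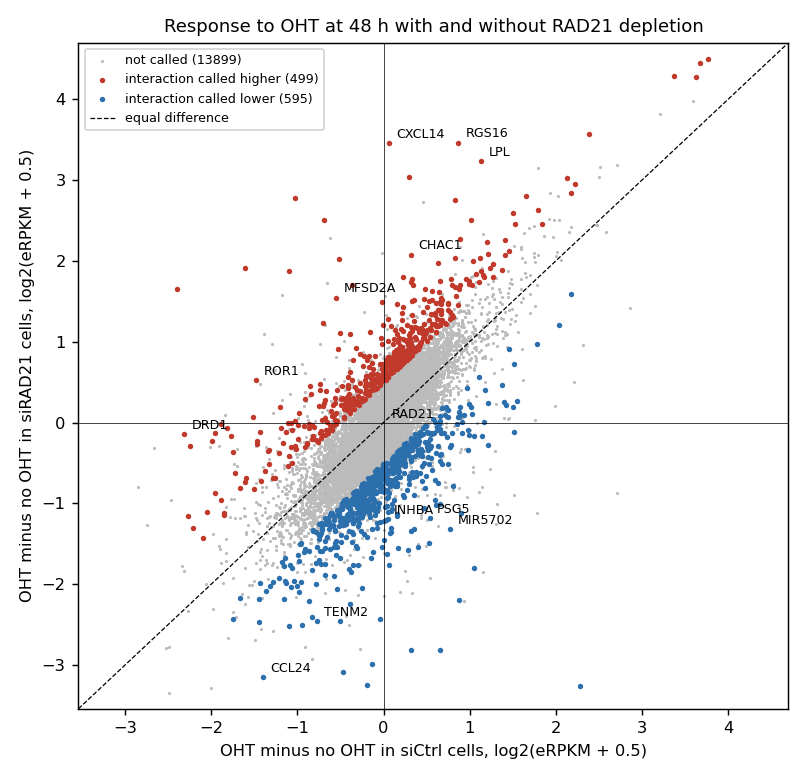
OHT effect of each of the 14993 genes at 48 h in siCtrl cells (horizontal axis) and in siRAD21 cells (vertical axis), both in log2(eRPKM + 0.5). Red points are the 499 genes with a called higher interaction and blue points the 595 with a called lower one, and the dashed line marks an equal OHT effect. Among the labelled genes CXCL14, at an interaction of 3.39, and RGS16, at 2.59, lie farthest above the line.

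The commonest form was an OHT response that was called in siRAD21 cells and not in siCtrl cells. These counts rest on the same libraries as the interaction and are a description. Of the 499 higher genes, 232 (46.5%) rose with OHT in siRAD21 cells and were not called in siCtrl cells, 93 rose in both, 80 fell in siCtrl cells and were not called in siRAD21 cells, 20 fell in both, 6 fell in siCtrl and rose in siRAD21 cells, and 68 were called in neither. The 595 lower genes mirrored this. Among them, 334 (56.1%) fell with OHT in siRAD21 cells and were not called in siCtrl cells, 93 fell in both, 70 rose in siCtrl cells and were not called in siRAD21 cells, 13 rose in siCtrl and fell in siRAD21 cells, 6 rose in both, and 79 were called in neither. The median OHT effect of the higher genes was 0.08 log2 in siCtrl and 0.76 in siRAD21 cells, and that of the lower genes -0.05 and -0.82.

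The same genes can be read as an effect of RAD21 depletion that differed with OHT. The interaction is also the siRAD21 effect with OHT minus that without it. Picking higher genes by it favours negative effects without OHT, and picking lower genes positive ones. The counts and medians of called genes below rest on these same libraries and are a description. Without OHT, 3559 genes (23.7%) differed between siRAD21 and siCtrl cells, 1883 higher (12.6%) and 1676 lower (11.2%) in siRAD21 cells. With OHT 2431 genes (16.2%) differed, 1270 higher (8.47%) and 1161 lower (7.74%). Of the 499 higher genes, 359 (71.9%) were lower in siRAD21 than in siCtrl cells without OHT, and 262 of these 359 were not called between siRAD21 OHT and siCtrl OHT cells. Of the 595 lower genes, 358 (60.2%) were higher in siRAD21 cells without OHT, and 260 of these were not called with OHT. The median effect of siRAD21 on the higher genes was -0.81 log2 without and -0.09 with OHT, and on the lower genes 0.68 and -0.08.

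**Figure D2:**
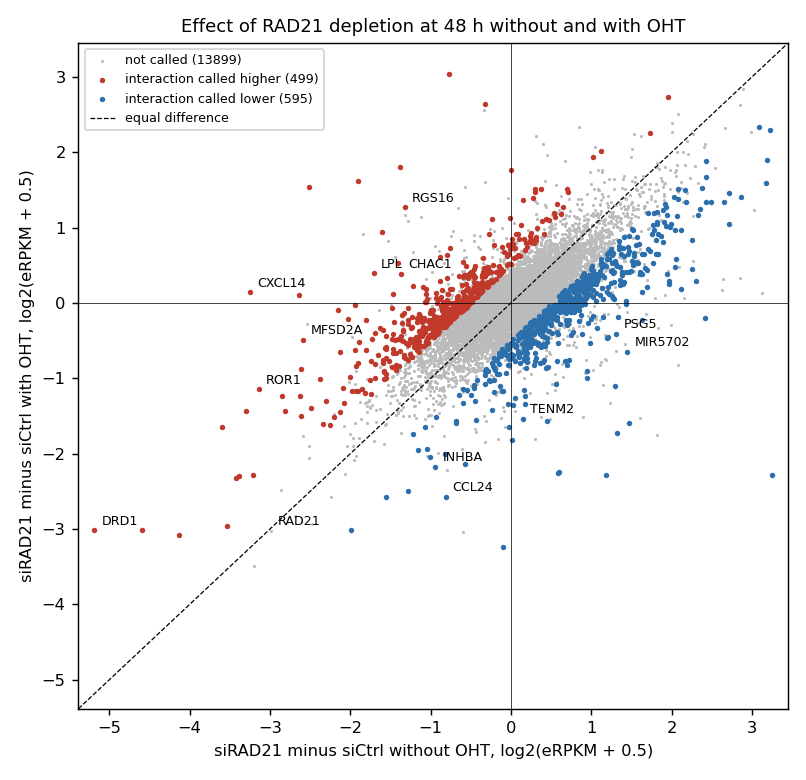
Difference between siRAD21 and siCtrl cells of each of the 14993 genes at 48 h without OHT (horizontal axis) and with OHT (vertical axis), in log2(eRPKM + 0.5), coloured as in the plot of OHT effects. Many red points lie left of 0 and near 0 on the vertical axis, with medians of -0.81 and -0.09, and many blue points lie right of 0, with medians of 0.68 and -0.08. The coloured genes were picked on these same libraries, which favours such positions.

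CXCL14 (chr5:134906369-134914969, minus strand, GRCh37), a chemokine of epithelium and stroma, had the largest interaction among the 513 of these stably called genes that reached a mean of 5 eRPKM in 1 of the 4 groups, from which the largest values are described here. Larger fitted values were seen outside that set. CXCL14 was at 13.7, 13.4 and 16.9 eRPKM in siCtrl cells, 13.9, 14.9 and 17.3 in siCtrl OHT cells, 1.25 and 0.944 in siRAD21 cells and 16.9 and 17 in siRAD21 OHT cells. Only the siRAD21 libraries without OHT stood apart, far below the other 8. Its exons overlap those of SLC25A48. The interaction was 3.39 ± 0.15 log2 (SE, adjusted p = 2.42e-08). RGS16 (chr1:182567758-182573524, minus strand, GRCh37), which shortens signalling by heterotrimeric G proteins, was at 12.9, 12.9 and 9.68 eRPKM in siCtrl, 22.5, 23.2 and 19.8 in siCtrl OHT, 4.29 and 4.45 in siRAD21 and 54 and 52.2 in siRAD21 OHT cells. It was lowest with siRAD21 alone and highest with siRAD21 and OHT, and no pair of groups overlapped (interaction 2.59 ± 0.14, adjusted p = 1.23e-07). LPL, the lipase that frees fatty acids from circulating triglyceride, followed the same order, at 8.05, 9.2 and 9.18 eRPKM in siCtrl, 18.8, 19.6 and 21.5 in siCtrl OHT, 2.13 and 2.59 in siRAD21 and 27.3 and 25.4 in siRAD21 OHT cells (interaction 2.10 ± 0.11, adjusted p = 1.07e-07). CA12, a membrane carbonic anhydrase, was at 20.2, 22.9 and 24.5 eRPKM in siCtrl, 39.9, 40.1 and 41.1 in siCtrl OHT, 5.26 and 5.75 in siRAD21 and 40.3 and 39.3 in siRAD21 OHT cells. Its siCtrl OHT and siRAD21 OHT libraries overlapped, while siRAD21 cells without OHT were below siCtrl cells (interaction 1.92 ± 0.09, adjusted p = 2.42e-08). RGCC, a regulator of the cell cycle, was at 0.579 and 0.973 eRPKM in siRAD21 cells and between 3.37 and 5.93 in the other 8 libraries (interaction 2.06 ± 0.23, adjusted p = 6.82e-05).

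Other large higher interactions came from genes that OHT lowered in siCtrl cells and that were low in siRAD21 cells with and without OHT. DRD1 (chr5:174867039-174871185, minus strand, GRCh37), a dopamine receptor, was at 33.5, 32.1 and 25 eRPKM in siCtrl cells, 7.09, 6.18 and 4.06 in siCtrl OHT cells, 0.299 and 0.378 in siRAD21 cells and 0.215 and 0.302 in siRAD21 OHT cells. It fell by 2.31 log2 with OHT in siCtrl cells, and in siRAD21 cells, at levels of 7 to 13 reads, the OHT difference of -0.15 was not called (interaction 2.17 ± 0.25, adjusted p = 9.05e-05). The call was lost with voom on the recovered reads. KRT14, a keratin of basal epithelium with close paralogs, had the same form, at 11.8, 12.5 and 12.7 eRPKM in siCtrl, 2.57, 1.9 and 2.23 in siCtrl OHT, 0.728 and 0.419 in siRAD21 and 0.507 and 0.249 in siRAD21 OHT cells (interaction 1.95 ± 0.28, adjusted p = 0.000422). In both genes the siRAD21 libraries lay below all siCtrl libraries, and their OHT difference was not called. KRT14 had 4 to 13 reads in the siRAD21 and siRAD21 OHT libraries. Mean levels in these groups were 0.338 and 0.258 eRPKM in DRD1 and 0.574 and 0.378 in KRT14, near the 0.5 added before the log. A further fall with OHT is understated at such levels, which favours a higher interaction.

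MFSD2A and ROR1 changed in opposite directions. MFSD2A (chr1:40420784-40435640, plus strand, GRCh37), a transporter of lysolipids, was at 11.8, 11.8 and 11.8 eRPKM in siCtrl cells and 8.25, 7.49 and 7.97 in siCtrl OHT cells, a fall, and at 1.54 and 1.56 in siRAD21 cells and 5.41 and 5.55 in siRAD21 OHT cells, a rise. None of the 4 groups overlapped (interaction 2.09 ± 0.11, adjusted p = 1.07e-07). ROR1, an orphan receptor tyrosine kinase, fell from 11.9, 11 and 10.7 to 3.83, 3.36 and 3.95 eRPKM in siCtrl cells and rose from 0.795 and 0.85 to 1.34 and 1.47 in siRAD21 cells, where it stayed far below its level without depletion (interaction 2.00 ± 0.17, adjusted p = 1.11e-05). The microRNA gene MIR3193 completed the 10 largest higher interactions of that set with 1.94 ± 0.36 (adjusted p = 0.00267), from 39.2, 29.1 and 35.4 eRPKM in siCtrl, 26.6, 26.4 and 12.9 in siCtrl OHT, 15 and 10.7 in siRAD21 and 35.8 and 25.9 in siRAD21 OHT cells, a gene of 6 to 21 reads per library in which siCtrl and siRAD21 OHT libraries overlapped.

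**Figure D3:**
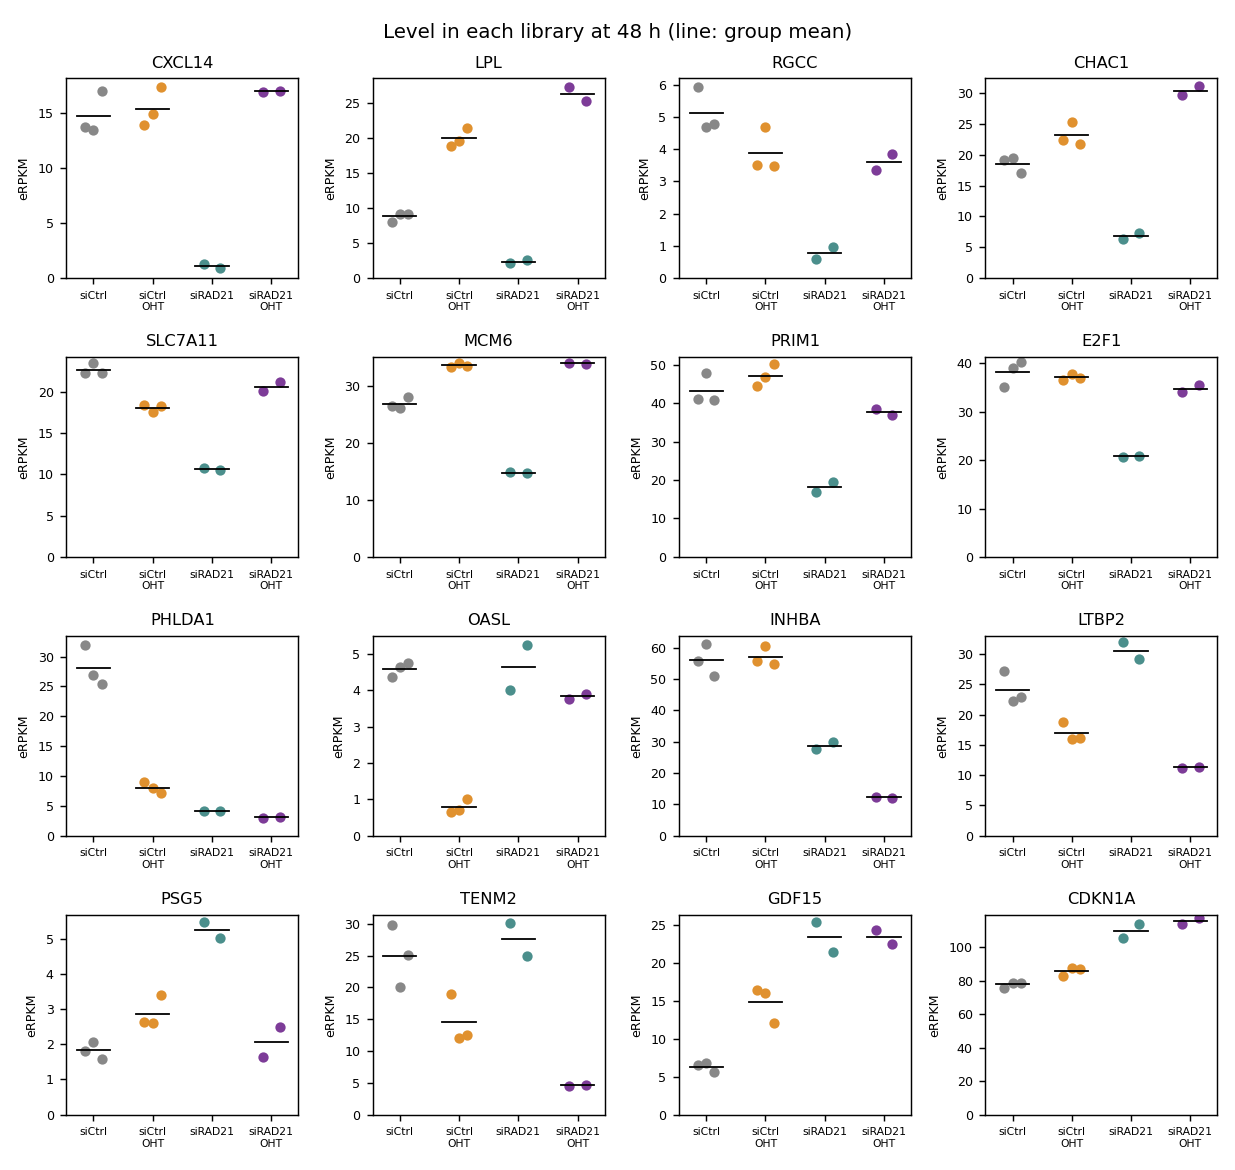
Level of 16 genes in each of the 10 libraries at 48 h, in eRPKM on a linear axis from 0, with 1 point per library and a line at the group mean. In CXCL14, CHAC1, SLC7A11, MCM6, PRIM1 and E2F1 the siRAD21 libraries without OHT are the lowest group, and in INHBA, LTBP2 and TENM2 the siRAD21 OHT libraries are.

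Of the 10 largest lower interactions in the same set, 8 belonged to genes that rose with RAD21 depletion and fell with OHT in siRAD21 cells. PSG5 (chr19:43670408-43690688, minus strand, GRCh37), a pregnancy-specific glycoprotein of the placenta, was at 1.82, 2.07 and 1.58 eRPKM in siCtrl cells, 2.62, 2.59 and 3.4 in siCtrl OHT cells, 5.48 and 5.02 in siRAD21 cells and 1.64 and 2.48 in siRAD21 OHT cells. OHT raised it without and lowered it with depletion (interaction -1.72 ± 0.20, adjusted p = 0.000113). Its neighbour PSG4 was at 3.6, 3.46 and 5.56 eRPKM in siCtrl, 6.26, 6.36 and 7.77 in siCtrl OHT, 10.3 and 9.95 in siRAD21 and 4.92 and 4.65 in siRAD21 OHT cells (interaction -1.66 ± 0.20, adjusted p = 0.000122). The PSG genes are near-identical copies, so how reads were split between them is uncertain. ALPP, the placental alkaline phosphatase, which also has close copies, was at 6.2 and 5.64 eRPKM in siRAD21 cells and between 0.801 and 1.88 in the other 8 libraries (interaction -1.71 ± 0.22, adjusted p = 0.000158). KCNA1, a voltage-gated potassium channel, was at 11.4 and 11.5 eRPKM in siRAD21 cells and between 1.68 and 4.52 elsewhere (interaction -1.67 ± 0.30, adjusted p = 0.00185). DYSF, which repairs the membrane of muscle cells, and IGFL4, an IGF-like peptide, were at 6.03 and 5.04 and at 5.44 and 5.99 eRPKM in siRAD21 cells, with interactions of -1.57 ± 0.19 (adjusted p = 0.000119) and -1.56 ± 0.32 (adjusted p = 0.0041). In the other groups neither passed 1.39 eRPKM, and IGFL4 was not called at a pseudocount of 0.1 or with voom.

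TENM2 (chr5:166406034-167691162, plus strand, GRCh37), a teneurin of neuronal adhesion, showed another form. It was at 29.8, 20.05 and 25.2 eRPKM in siCtrl cells, 19, 12.1 and 12.5 in siCtrl OHT cells, 30.1 and 25 in siRAD21 cells and 4.45 and 4.71 in siRAD21 OHT cells. Depletion alone left it overlapping with siCtrl cells, and the siRAD21 OHT libraries were lowest by a wide margin (interaction -1.69 ± 0.24, adjusted p = 0.000431). CCL24, an eosinophil chemokine, was at 10.3, 7.39 and 15 eRPKM in siCtrl, 3.73, 3.22 and 4.12 in siCtrl OHT, 6.12 and 5.38 in siRAD21 and 0 and 0.486 in siRAD21 OHT cells (interaction -1.76 ± 0.38, adjusted p = 0.00602). Both OHT groups were below their controls, and with 0 reads in 1 siRAD21 OHT library the fitted value depends on the pseudocount. On a linear scale the CCL24 interaction turned sign, to 1.71 eRPKM. MIR3936 (chr5:131701182-131701291, minus strand, GRCh37) was at 54.2 and 56.1 eRPKM in siRAD21 cells and between 15.4 and 23.1 in the other 8 libraries (interaction -1.86 ± 0.12, adjusted p = 1.12e-06). It lies between SLC22A4 and SLC22A5, carnitine transporters that were called lower too. MIR5702 had -2.09 ± 0.48 (adjusted p = 0.00858), from 3.67, 7.14 and 11 eRPKM in siCtrl, 10.5, 9.87 and 15.7 in siCtrl OHT, 16.4 and 22.2 in siRAD21 and 7.4 and 7.27 in siRAD21 OHT cells, or 3 to 19 reads per library, and OHT changed it in opposite directions in the 2 states.

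Promoter windows from RefSeq (GRCh38.p14, 250 bases before to 50 after the gene start) are shown, in gene direction, for the genes with a window among the 3 largest interactions of that set in each direction, since the comparison turned most on these genes. The windows were searched on both strands for the E-box CACGTG, the Myc and MAX site, which 7.26% of the 35116 windows in the table hold, and for the E2F letters TTTGGCGC or TTTCCCGC, which 2.27% hold. Capitals mark a match. DRD1 has an E-box that begins 111 bases before the start, and no letters of either motif are in the windows of CXCL14, RGS16 and CCL24.
CXCL14 (chr5:135578942-135579241, minus strand): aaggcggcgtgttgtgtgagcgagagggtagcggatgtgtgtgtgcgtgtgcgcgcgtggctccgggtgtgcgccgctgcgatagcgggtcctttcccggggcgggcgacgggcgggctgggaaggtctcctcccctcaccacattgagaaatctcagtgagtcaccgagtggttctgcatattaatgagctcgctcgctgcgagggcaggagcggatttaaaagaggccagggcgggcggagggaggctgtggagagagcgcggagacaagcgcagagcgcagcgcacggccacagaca
RGS16 (chr1:182604340-182604639, minus strand): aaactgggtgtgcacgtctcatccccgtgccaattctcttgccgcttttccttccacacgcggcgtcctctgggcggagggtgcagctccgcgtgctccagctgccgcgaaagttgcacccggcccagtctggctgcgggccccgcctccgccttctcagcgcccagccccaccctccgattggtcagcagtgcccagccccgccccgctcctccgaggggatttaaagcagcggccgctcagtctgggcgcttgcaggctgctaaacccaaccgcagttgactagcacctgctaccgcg
DRD1 (chr5:175444133-175444432, minus strand): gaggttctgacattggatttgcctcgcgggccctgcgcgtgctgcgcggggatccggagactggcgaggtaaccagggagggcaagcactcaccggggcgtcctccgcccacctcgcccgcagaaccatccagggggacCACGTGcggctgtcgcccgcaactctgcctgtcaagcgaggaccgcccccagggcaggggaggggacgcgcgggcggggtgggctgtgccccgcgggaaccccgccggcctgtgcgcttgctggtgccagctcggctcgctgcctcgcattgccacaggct
CCL24 (chr7:75823323-75823622, minus strand): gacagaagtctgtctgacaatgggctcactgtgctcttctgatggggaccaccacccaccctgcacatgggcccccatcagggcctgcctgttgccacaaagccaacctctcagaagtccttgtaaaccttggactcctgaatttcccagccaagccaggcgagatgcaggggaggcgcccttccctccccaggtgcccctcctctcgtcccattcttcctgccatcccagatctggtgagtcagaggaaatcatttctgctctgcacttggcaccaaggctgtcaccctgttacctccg

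Genes of DNA replication shifted together. Gene lists were written by hand, and members named beyond the 65 genes that the naming rule picked were chosen after their values were seen. Of 29 tested members of origin licensing and firing, 11 were called higher and 0 lower, and of 35 at the replication fork 14 were higher and 0 lower, against 3.33% and 3.97% of all genes. Their median interactions were 0.46 and 0.44 log2, beside 0.02 over all genes. No origin member was called for OHT in siCtrl cells, 16 rose with OHT in siRAD21 cells, 18 were lower in siRAD21 than in siCtrl cells without OHT, and 2 with OHT. At the fork these counts were 1 higher and 1 lower, 20 higher and 1 lower, 25 lower, and 4 lower with 1 higher. Over all genes, OHT raised 7.78% and lowered 10.1% in siCtrl cells, and raised 12.4% and lowered 16.2% in siRAD21 cells. Of all genes, 11.2% were lower in siRAD21 than in siCtrl cells without OHT, and with OHT 7.74% were lower and 8.47% higher.

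MCM6 (chr2:136597196-136634013, minus strand, GRCh37), a subunit of the replicative helicase, was at 26.5, 26.2 and 28.1 eRPKM in siCtrl cells, 33.3, 34.1 and 33.5 in siCtrl OHT cells, 14.9 and 14.7 in siRAD21 cells and 34.1 and 34 in siRAD21 OHT cells. Depletion without OHT took it below every other library, and with OHT the siRAD21 and siCtrl libraries overlapped (interaction 0.86 ± 0.06, adjusted p = 1.29e-06). ORC1 (chr1:52838501-52870095, minus strand, GRCh37), which marks origins, was at 26.9, 29.5 and 27.6 eRPKM in siCtrl, 30.7, 31.9 and 30.6 in siCtrl OHT, 13.3 and 12.1 in siRAD21 and 24.1 and 24.2 in siRAD21 OHT cells, and here siRAD21 OHT cells stayed below both siCtrl groups (interaction 0.75 ± 0.07, adjusted p = 1.72e-05). PRIM1, the primase that starts each Okazaki fragment, had the largest value of the fork list. It was at 41.1, 47.9 and 40.8 eRPKM in siCtrl, 44.5, 46.7 and 50.3 in siCtrl OHT, 16.8 and 19.6 in siRAD21 and 38.5 and 37.1 in siRAD21 OHT cells (interaction 0.91 ± 0.11, adjusted p = 0.000117), and its exons overlap those of HSD17B6 and NACA, so reads there cannot be told apart. CHAF1B, which loads histones behind the fork, went from 4.87 and 4.56 eRPKM in siRAD21 to 10.8 and 9.07 in siRAD21 OHT cells, with siCtrl libraries at 13.3, 15.8 and 15.6 and siCtrl OHT libraries at 15.9, 17.1 and 17.3 (interaction 0.83 ± 0.13, adjusted p = 0.000725).

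The other called origin members were MCM2, MCM4, MCM10, CDC45, GINS1, GINS2, GINS3, GINS4 and MTBP, with interactions from 0.55 to 0.74. Helicase subunits and activating factors were among them. At the fork, clamp loader subunits (RFC2, RFC3, RFC4 and RFC5), polymerase subunits (POLA1, POLD3 and POLE3), fork factors (TIPIN and WDHD1), CHAF1A, RPA2 and RNASEH2A were called, between 0.52 and 0.74. Deoxynucleotide supply had 0 of 14 members called, against 7.3% of all genes, and a median of 0.29. Its largest value was that of DTYMK, a thymidylate kinase, at 0.45 ± 0.09 (adjusted p = 0.00359), under the size threshold.

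Regulators of the G1 to S transition had 8 of 29 members called higher and 0 lower, against 3.33% and 3.97% of all genes. The median was 0.24. E2F1 (chr20:32263283-32274191, minus strand, GRCh37), the factor that switches on S phase genes, was at 35.1, 39 and 40.3 eRPKM in siCtrl cells, 36.7, 37.7 and 36.9 in siCtrl OHT cells, 20.7 and 20.9 in siRAD21 cells and 34 and 35.5 in siRAD21 OHT cells. The siRAD21 libraries without OHT were alone at the low level (interaction 0.76 ± 0.08, adjusted p = 6.41e-05). CCNE2, cyclin E2, was at 21.7, 22.6 and 18.2 eRPKM in siCtrl, 16.3, 17.5 and 15.5 in siCtrl OHT, 9.53 and 8.73 in siRAD21 and 12.3 and 12.9 in siRAD21 OHT cells (interaction 0.77 ± 0.13, adjusted p = 0.00105). For CCNE2 neither OHT effect was called, with -0.33 log2 in siCtrl and 0.44 in siRAD21 cells, and its exons overlap INTS8. CDC25A, E2F2 and CCNE1 were called as well, at 0.71, 0.76 and 0.58, and E2F5, E2F8 and RBL1 between 0.50 and 0.52.

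Of 53 mitotic genes tested, 51 had an interaction above 0, against 52.7% of all genes, and the median was 0.24. Only CENPM, a kinetochore protein, was called (0.66 ± 0.08, adjusted p = 0.000119), or 1.89% against 7.3% of all genes. Without OHT 20 of the 53 were lower in siRAD21 than in siCtrl cells, and with OHT 5. Over all genes these shares were 11.2% and 7.74%. Replication stress and DNA repair had 11 of 47 called higher, 0 lower and a median of 0.32. Of all genes 3.33% had a called higher and 3.97% a called lower interaction. BLM, a helicase that unwinds recombination structures, was at 22, 24.8 and 21.4 eRPKM in siCtrl, 25.2, 26.9 and 26.9 in siCtrl OHT, 8.87 and 9.22 in siRAD21 and 17.7 and 17.9 in siRAD21 OHT cells (interaction 0.73 ± 0.08, adjusted p = 8.11e-05). Its siRAD21 OHT libraries lay between siRAD21 cells and the siCtrl groups. Replication-dependent histones, expressed in S phase, had 5 of 47 called higher, 0 lower and a median of 0.30. HIST1H2BG was at 39.7, 48.9 and 40.6 eRPKM in siCtrl, 51.6, 55.7 and 52 in siCtrl OHT, 16.3 and 14.1 in siRAD21 and 35.6 and 31.1 in siRAD21 OHT cells (interaction 0.81 ± 0.12, adjusted p = 0.000624), and shares exons with HIST1H2BD and HIST1H2BF. HIST1H2AE, HIST1H2AK and HIST1H4I were called too, at 0.75, 0.81 and 0.68. HIST1H2BA, with 1.48 ± 0.37 (adjusted p = 0.0134), was called in 8 of the 10 fits that left out a library.

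Promoter windows are also given for MCM6 and E2F1, chosen after their values were seen because they are replication genes of the text whose promoter window holds E2F letters. In MCM6 the letters TTTGGCGC begin 152 and 90 bases before the gene start, and in E2F1 20 bases before it. As both genes were picked for holding the letters, their windows do not show how common the letters are among replication genes. RefSeq windows were at hand for 371 of the 499 higher genes (74.3%) and 411 of the 595 lower genes (69.1%), short of 80%, so a comparison of motif shares between these sets is void and none is given.
MCM6 (chr2:135876394-135876693, minus strand): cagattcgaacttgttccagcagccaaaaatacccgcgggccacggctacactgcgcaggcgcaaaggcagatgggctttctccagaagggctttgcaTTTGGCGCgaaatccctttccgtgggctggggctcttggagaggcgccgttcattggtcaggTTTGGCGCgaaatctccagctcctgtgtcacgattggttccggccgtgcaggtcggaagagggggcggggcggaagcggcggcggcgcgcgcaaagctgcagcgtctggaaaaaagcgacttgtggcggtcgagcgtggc
E2F1 (chr20:33686336-33686635, minus strand): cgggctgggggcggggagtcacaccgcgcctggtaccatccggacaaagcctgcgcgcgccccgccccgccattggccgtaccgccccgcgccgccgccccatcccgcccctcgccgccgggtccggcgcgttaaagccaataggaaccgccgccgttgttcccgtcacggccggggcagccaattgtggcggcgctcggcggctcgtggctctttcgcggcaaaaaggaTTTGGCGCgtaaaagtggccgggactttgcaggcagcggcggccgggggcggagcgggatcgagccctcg

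Genes of the amino acid response formed the other large higher list, in which 5 rose with OHT in siCtrl cells and 16 in siRAD21 cells. ATF4 is a transcription factor that cells make under amino acid shortage or protein stress. Of 29 tested members of the ATF4 and unfolded protein response list, 11 were called higher and 1 lower, with a median of 0.45. Without OHT 12 of the 29 were lower and 4 higher in siRAD21 than in siCtrl cells, with OHT 0 were lower and 5 higher. Of all genes, 3.33% had a called higher and 3.97% a called lower interaction, and OHT raised 7.78% in siCtrl and 12.4% in siRAD21 cells. Without OHT 11.2% of all genes were lower and 12.6% higher in siRAD21 than in siCtrl cells, and with OHT 7.74% and 8.47%. CHAC1 (chr15:41245160-41248710, plus strand, GRCh37), which breaks down glutathione, was at 19.2, 19.4 and 17 eRPKM in siCtrl, 22.3, 25.4 and 21.8 in siCtrl OHT, 6.34 and 7.35 in siRAD21 and 29.7 and 31.1 in siRAD21 OHT cells. The siRAD21 OHT libraries were the highest and the siRAD21 libraries the lowest, and no groups overlapped (interaction 1.76 ± 0.14, adjusted p = 6.25e-06). SLC7A11, the cystine transporter, was at 22.3, 23.6 and 22.3 eRPKM in siCtrl, 18.5, 17.6 and 18.3 in siCtrl OHT, 10.8 and 10.6 in siRAD21 and 20.1 and 21.2 in siRAD21 OHT cells (interaction 1.24 ± 0.09, adjusted p = 2.98e-06). OHT raised it in siRAD21 cells, while its OHT difference of -0.32 in siCtrl cells was not called. An antisense gene, SLC7A11-AS1, overlaps it and the kit did not mark strand.

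The serine pathway went along, with PHGDH, which opens it, at 0.99, PSAT1 at 0.90 and PSPH at 0.71, and so did asparagine synthetase (ASNS, 0.94). XBP1 and SDF2L1, of the unfolded protein response, were called at 0.65 and 0.75, and CEBPB, DDIT4 and VLDLR at 0.69, 0.57 and 0.57. GDF15, a stress cytokine that also stands in the p53 list, was the exception. It was at 6.59, 6.74 and 5.56 eRPKM in siCtrl, 16.4, 16 and 12.1 in siCtrl OHT, 25.3 and 21.4 in siRAD21 and 24.3 and 22.5 in siRAD21 OHT cells. OHT raised it in siCtrl cells and not in siRAD21 cells, which were above siCtrl cells with and without OHT (interaction -1.16 ± 0.22, adjusted p = 0.00271).

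Nucleolar and ribosome biogenesis targets of Myc responded to OHT in both states. Of 35 tested, 21 rose with OHT in siCtrl cells and 28 in siRAD21 cells, against 7.78% and 12.4% of all genes. Of these 35, 0 had a called interaction, against 7.3% of all genes (median 0.15). The largest was LYAR, a nucleolar growth factor, at 19.7, 22 and 20.6 eRPKM in siCtrl, 32.1, 38.9 and 35.3 in siCtrl OHT, 11.1 and 11.5 in siRAD21 and 27.3 and 26.3 in siRAD21 OHT cells (interaction 0.46 ± 0.10, adjusted p = 0.00763). Metabolic targets had 2 of 28 called higher, among them SHMT1 (0.67 ± 0.09, adjusted p = 0.000293), of folate metabolism. Cholesterol synthesis had 3 of 24 called higher, DHCR7 (0.62 ± 0.05), MVK (0.64 ± 0.10) and EBP (0.59), and 0 lower. Over all genes 3.33% were called higher and 3.97% lower.

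MYC itself was at 54.6, 49.9 and 52.3 eRPKM in siCtrl cells, 49.4, 43.3 and 42 in siCtrl OHT cells, 57.5 and 56.4 in siRAD21 cells and 36 and 32.9 in siRAD21 OHT cells. The siRAD21 OHT libraries were the lowest, and the interaction of -0.50 ± 0.09 log2 (adjusted p = 0.00191) fell just short of the size threshold. Whether MYC was called turned on the setting. It stayed uncalled in only 4 of the 10 fits that left out a library, with values from -0.56 to -0.43. Removing duplicates left MYC at 31.4% of the possible start positions, and undoing the removal gave -0.58, which was called. Reads of the MycER transgene and of the MYC gene on shared exons cannot be told apart. In the Myc and Max network 1 of 12 genes was called (8.33%, against 7.3% of all genes), MXD4, a MAX partner that represses. It was at 15, 14 and 14.6 eRPKM in siCtrl, 4.21, 4.47 and 4.81 in siCtrl OHT, 30.8 and 33.5 in siRAD21 and 19.4 and 20.1 in siRAD21 OHT cells. Depletion raised it and OHT lowered it in both states, by a larger factor in siCtrl cells (interaction 0.91 ± 0.10, adjusted p = 5.84e-05), while the linear interaction was -2.30 eRPKM.

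Matrix and adhesion genes went the other way. Of 40 collagens, laminins and matrix genes, 7 were called lower and 0 higher (median -0.30), and of 25 matrix proteases and inhibitors 4 were lower and 0 higher (median -0.24). Among the matrix genes 14 fell with OHT in siCtrl cells and 26 in siRAD21 cells, and 14 were higher in siRAD21 than in siCtrl cells without OHT. Beside these, 3.97% of all genes had a called lower and 3.33% a called higher interaction. With OHT 10.1% of all genes fell in siCtrl and 16.2% in siRAD21 cells. Without OHT 12.6% of all genes were higher in siRAD21 than in siCtrl cells. LTBP2, a latent TGF-beta binding protein of elastic fibres, was at 27.3, 22.3 and 22.9 eRPKM in siCtrl, 18.9, 16.1 and 16.1 in siCtrl OHT, 31.9 and 29.1 in siRAD21 and 11.2 and 11.4 in siRAD21 OHT cells. Its highest group was siRAD21 and its lowest siRAD21 OHT, with no overlap between groups (interaction -0.90 ± 0.13, adjusted p = 0.000336). LAMA5, a laminin chain, was at 9.14, 6.58 and 9.44 eRPKM in siCtrl, 7.28, 5.6 and 6.38 in siCtrl OHT, 19.4 and 15.6 in siRAD21 and 7.58 and 7.01 in siRAD21 OHT cells (interaction -0.85 ± 0.20, adjusted p = 0.0098), and the call was lost without siRAD21 replicate 1. COL6A2, COL6A3, COL8A1 and LAMB3 were also called, between -0.54 and -0.73. COL5A1, a fibrillar collagen, had the largest value of the list, -1.20, and was not called. MMP24, MMP9, TIMP2 and ADAMTS6 were the proteases and inhibitors called. MMP9, a gelatinase, was at 15.7, 12.4 and 13.3 eRPKM in siCtrl, 10.03, 7.94 and 7.69 in siCtrl OHT, 23.3 and 23.6 in siRAD21 and 8.91 and 8.11 in siRAD21 OHT cells (interaction -0.75 ± 0.15, adjusted p = 0.00418), and MMP24 had -0.79 ± 0.09 (adjusted p = 7.14e-05). The summed level of the 12 osteosarcoma and mesenchymal markers was 374 to 424 eRPKM in siCtrl, 299.9 to 328 in siCtrl OHT, 413 in siRAD21 and 301 in siRAD21 OHT libraries. COL1A1, COL5A1, SPARC and FN1 stand in the matrix list as well, and between siRAD21 and siRAD21 OHT cells the mean level went from 61.4 to 16.7 eRPKM in COL1A1, from 49.5 to 22.3 in FN1 and from 22.8 to 3.11 in COL5A1. VIM and THY1, outside that list, went from 115 to 120.0 and from 56.3 to 51.9. The part of the markers in the result was not tested.

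Adhesion molecules had 3 of 24 called lower and 1, ITGA4, higher, against 3.97% and 3.33% of all genes. CDH4, a cadherin, had -1.17 ± 0.28 (adjusted p = 0.0105), ITGA7 -0.99, and L1CAM -1.02 ± 0.30 (adjusted p = 0.0303), with L1CAM called in 5 of the 10 fits that left out a library and of the other sign, 8.96 eRPKM, on a linear scale. In the IGF axis, 3 of 10 were lower (IGF1R, IGFBP4 and PAPPA) and 1 higher (STC1), with a median of -0.36. IGFBP4, an IGF binding protein, had -0.82 ± 0.23 (adjusted p = 0.0263), called in 4 of 10 such fits, and STC1 0.75 ± 0.19 (adjusted p = 0.0146), called in 8. Clustered protocadherins, adhesion genes whose promoter choice depends on cohesin loops, had 4 of 23 called lower and 0 higher (median -0.30). OHT lowered 19 of the 23 in siCtrl cells and 20 in siRAD21 cells, against 10.1% and 16.2% of all genes. PCDHB8 was at 10.7, 8.7 and 10.3 eRPKM in siCtrl, 5.19, 4.63 and 4.42 in siCtrl OHT, 6.29 and 6.36 in siRAD21 and 1.49 and 1.69 in siRAD21 OHT cells (interaction -0.72 ± 0.14, adjusted p = 0.00259, 0.413 eRPKM on a linear scale) and PCDHB10 at 3.05, 2.45 and 3.27 eRPKM in siCtrl, 0.808, 0.922 and 0.746 in siCtrl OHT, 4.5 and 4.84 in siRAD21 and 0.73 and 0.718 in siRAD21 OHT cells (interaction -0.71 ± 0.16, adjusted p = 0.00924). PCDHA4 and PCDHAC1 were the others, and members of the clusters share sequence, so the split of reads is uncertain.

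TGF-beta, BMP and YAP genes were divided, with 6 of 30 called higher and 4 lower, against 3.33% and 3.97% of all genes. INHBA, the activin A subunit, was at 55.9, 61.3 and 50.8 eRPKM in siCtrl, 55.7, 60.5 and 54.9 in siCtrl OHT, 27.8 and 29.8 in siRAD21 and 12.5 and 12 in siRAD21 OHT cells. OHT left it level in siCtrl cells, with overlapping groups, and lowered it in siRAD21 cells (interaction -1.23 ± 0.10, adjusted p = 8.27e-06). An antisense gene, INHBA-AS1, overlaps it. TGFB2 (-0.89), TGFBI (-0.88) and ACTA2 (-0.51) were lower too. TGFB3, another ligand, was at 10.4, 9.85 and 10.3 eRPKM in siCtrl, 7.47, 5.94 and 7.23 in siCtrl OHT, 5.3 and 5.22 in siRAD21 and 6.93 and 7.35 in siRAD21 OHT cells (interaction 0.95 ± 0.12, adjusted p = 0.000197), so the ligands TGFB2 and TGFB3 had interactions of opposite sign. ID2, ID3 and ID4, BMP targets that block differentiation factors, were higher by 0.53, 0.57 and 0.83, and SERPINE2 and INHBE by 0.63 and 0.73.

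Of the immediate early, interferon-stimulated and NF-kB lists, 11.1%, 8.57% and 8% were called, near the 7.3% of all genes. PHLDA1, an immediate early gene, was at 32, 27 and 25.4 eRPKM in siCtrl, 9.03, 7.96 and 7.12 in siCtrl OHT, 4.08 and 4.18 in siRAD21 and 3.01 and 3.19 in siRAD21 OHT cells. OHT lowered it in siCtrl cells, and its difference in siRAD21 cells was not called (interaction 1.38 ± 0.14, adjusted p = 4.17e-05). DUSP5, a phosphatase that ends ERK signalling, had -0.60 ± 0.15 (adjusted p = 0.0128) and FOSL2 -0.54, and these were the called ones among 27 immediate early genes. OASL, an interferon-stimulated gene, was at 4.38, 4.65 and 4.76 eRPKM in siCtrl, 0.655, 0.696 and 1.02 in siCtrl OHT, 4.0 and 5.26 in siRAD21 and 3.78 and 3.91 in siRAD21 OHT cells. OHT lowered it in siCtrl cells alone at these thresholds, and the siCtrl OHT libraries stood apart from the other 7 (interaction 1.76 ± 0.28, adjusted p = 0.000779). SAMD9L, in the same list, fell with OHT in both states, from 5.05, 6.53 and 5.43 to 1.87, 1.79 and 2.28 and from 10.6 and 11.8 to 2.34 and 2.43 eRPKM (interaction -0.71 ± 0.19, adjusted p = 0.018, called in 8 of 10 fits that left out a library). Of 35 interferon-stimulated genes 2, OASL and IFI44 (0.69), were called higher and 1 lower. Among 25 NF-kB and cytokine genes, TNFAIP6 was higher (1.05 ± 0.33, adjusted p = 0.0412, called in 4 of 10 such fits), with 0.193 and 0 eRPKM in siRAD21 and 0 and 0.215 in siRAD21 OHT cells, levels of 0 to 3 reads. CSF1, the macrophage growth factor, was lower (-0.73 ± 0.15, adjusted p = 0.00406), at 12.9 and 11.7 eRPKM in siRAD21 and 7.63 and 7.96 in siRAD21 OHT cells.

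Of 32 p53 targets tested, 17 were higher in siRAD21 than in siCtrl cells without OHT and 16 with OHT. Over all genes these shares were 12.6% and 8.47%. Only GDF15 had a called interaction (3.13%, against 7.3% of all genes, median -0.11). Whether the list differs from all genes in this was not tested. CDKN1A, the CDK inhibitor p21, was at 76, 78.7 and 78.7 eRPKM in siCtrl, 82.7, 87.4 and 86.9 in siCtrl OHT, 106 and 114 in siRAD21 and 114 and 117 in siRAD21 OHT cells, with an interaction of -0.06 ± 0.07 (adjusted p = 0.591). MDM2, which marks p53 for breakdown, had -0.11 ± 0.05 (adjusted p = 0.144). CDKN1A filled 58.0% of the start positions that remain when duplicates are removed, RAD21 48.5% and MDM2 33.2%, which compresses differences at such levels. With the removal of duplicates undone, CDKN1A had -0.11 and MDM2 -0.15. The BCL2 family, which decides on cell death, had 0 of 18 called, against 7.3% of all genes, and a median of -0.02. Its largest value was that of HRK (0.43 ± 0.21, adjusted p = 0.185). Cohesin and its regulators had 0 of 17 called, against the same 7.3%, and a median of 0.11. CDCA5 (sororin), which keeps cohesin on replicated DNA, was the largest there, at 0.47 ± 0.07 (adjusted p = 0.000808) and under the size threshold.

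The same contrast at 24 h came from 8 other libraries. No gene was called there by limma (0%), with 906 genes (6.04%) at an unadjusted p below 0.05, and voom on the recovered reads called 18. The genes called at 48 h nevertheless leaned the same way at 24 h. Of the 499 higher genes 382 (76.6%) had a 24 h interaction above 0, against 51.3% of all genes, with a median of 0.12. Of the 595 lower genes 525 (88.2%) were below 0, against 48.7% of all genes, with a median of -0.24. The medians at 48 h were 0.68 and -0.73. At an unadjusted p below 0.05, 78 of the higher and 180 of the lower genes passed in the same direction at 24 h, and 5 and 2 in the other. Among all 14993 genes 343 passed in the higher and 563 in the lower direction.

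**Figure D4:**
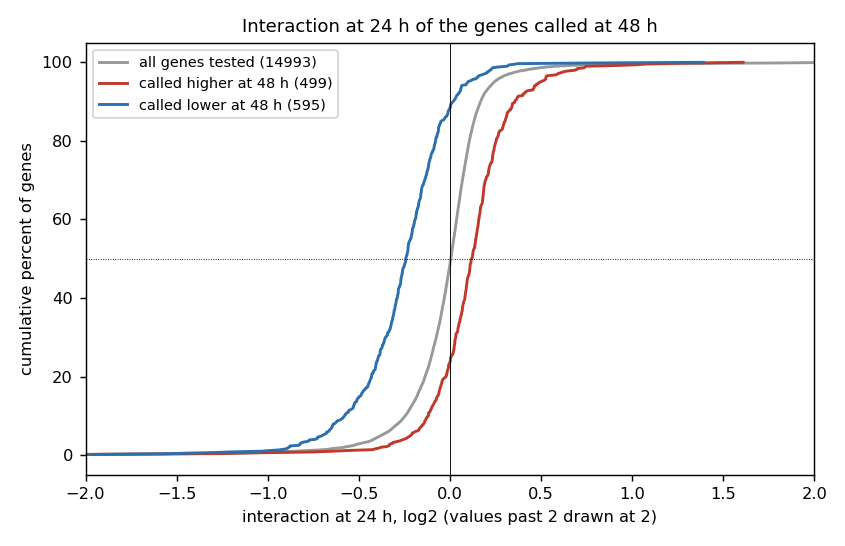
Cumulative share of genes (vertical axis, percent) by their interaction at 24 h in log2 (horizontal axis), for all 14993 genes and for those called higher or lower at 48 h. The curve of the 595 lower genes lies to the left of that of all genes, with a median of -0.24, and that of the 499 higher genes to the right, with a median of 0.12.

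The difference between the interactions at the 2 times was called for 125 genes (0.834%), 98 higher (0.654%) and 27 lower (0.18%) at 48 h. This count fell to 45 with the siRAD21 OHT libraries averaged at 48 h, and to between 51 and 77 without any one of siRAD21 replicate 1 or either siRAD21 OHT replicate at 48 h, or either siCtrl OHT, siRAD21 or siRAD21 OHT replicate at 24 h. By list, 8 of the 29 ATF4 genes, 7 of the 29 origin genes, 5 of the 35 fork genes and 4 of the 47 stress and repair genes were called higher, and 0 in these lists lower. The ATF4 list had a median of -0.06 at 24 h and 0.45 at 48 h, and CHAC1 -0.07 and 1.76. The origin list had 0.09 and 0.46. Matrix genes had -0.10 and -0.30, with no member called in this difference.

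Genes picked only on libraries of 24 h gave the same measure in samples the choice did not use. At 24 h, OHT changed 8.78% of the genes in siCtrl cells, and depletion without OHT 8.43%. Of 551 genes that OHT raised in siCtrl cells at 24 h (3.68% of those tested), 78 (14.2%) were called higher in the 48 h interaction and 36 (6.53%) lower. Of 765 that OHT lowered (5.1%), 98 (12.8%) were lower and 43 (5.62%) higher. Of 390 genes that were lower in siRAD21 than in siCtrl cells at 24 h without OHT (2.6%), 73 (18.7%) were higher and 12 (3.08%) lower, and of 874 that were higher (5.83%), 173 (19.8%) were lower and 25 (2.86%) higher. Of all genes, 3.33% were called higher and 3.97% lower. Genes that depletion moved at 24 h had a larger share called in the opposite direction in the 48 h interaction. Their shares in the same direction, 3.08% and 2.86%, were below those of all genes. Genes that OHT moved at 24 h had a larger share called in the same direction. At 6.53% and 5.62% their shares in the opposite direction were above those of all genes too.

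The study sorted genes regulated by MycER into bound and unbound by Myc. Genes in that table were chosen on the OHT response of siCtrl cells at 48 h, so only bound and unbound genes are set side by side. Among those with a higher level with OHT at 24 h, 59 of 710 bound genes (8.31%) were called higher and 20 (2.82%) lower, and 45 of 472 unbound genes (9.53%) were higher and 54 (11.4%) lower. Among those with a lower level, 26 of 329 bound genes (7.90%) were higher and 22 (6.69%) lower, and 66 of 1013 unbound genes (6.52%) were higher and 79 (7.80%) lower. Over all genes tested, 3.33% were called higher and 3.97% lower. The 4 sets were chosen on an arm of the interaction, which by itself can raise their shares above those of all genes. Among them the bound genes that OHT raised had the smallest share of lower calls, 2.82%. The differences between bound and unbound genes were not tested.

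Called genes had neighbours with the same call more often than all genes did. The next tested gene on the chromosome was called higher for 30 of 488 higher genes (6.15%), against 3.35% of all pairs, and called lower for 56 of 580 lower genes (9.66%), against 3.98%. Runs of 3 genes called lower included PSG5, PSG4 and PSG9 on chromosome 19 and SLC22A4, MIR3936 and SLC22A5 on chromosome 5. Neighbours can share reads where their exons overlap, and the part of this was not tested. On a linear scale 489 of the 499 higher and 584 of the 595 lower genes kept their direction. Among called genes, 14 higher and 17 lower had a group in which no library passed 3 reads, where the fitted value depends on the pseudocount. Longer genes near the pseudocount, such as DRD1 in siRAD21 cells, had more reads, and their values can depend on it too. MicroRNA or small nucleolar RNA genes, which are shorter than most library fragments, made up 21 of the higher and 15 of the lower genes.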

How the data were processed

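Total RNA depleted of ribosomal RNA was sequenced as 50-base reads with a kit that does not mark strand. Per the study's methods and the submitters' processing notes, the authors aligned reads to hg19 with TopHat2 2.0.8, removed duplicates, counted with featureCounts 1.4.5 and deposited eRPKM, an RPKM over exons. The annotation is not given in the sources used here. Whole reads could be recovered for 22040 genes (1359 others were at 0 in every library), which gave the depths. Removing duplicates caps the level of highly expressed genes.

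Groups came from the labels. log2(eRPKM + 0.5) of genes with a mean of at least 1 eRPKM over the 18 libraries was fitted with limma 3.58.1 (R 4.3.3) on 8 group means with a variance trend, and p-values were adjusted by Benjamini-Hochberg over 14993 genes. A call needed an adjusted p below 0.05 and an absolute log2 value above 0.5. The study's methods speak of biological replicates, and nothing more says how the libraries of a group were separated, so p-values measure the spread between these libraries. The script was run on simulated reads of 15063 genes, 200 of them with a known interaction at 48 h. It called 90.5% of the 200 in the right direction and made 20 false calls among the others. The simulated spread was a fixed value that was not fitted to these libraries, so the error rate here may differ. Tables were handled in Python 3.11.15 with pandas 2.3.3 and numpy 2.4.6, and figures drawn with matplotlib 3.10.9.

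Members, lists and tests were chosen with earlier results of these data known. The 65 named genes are RAD21, MYC, CDKN1A and MDM2, the 10 largest interactions in each direction among genes with a group mean of at least 5 eRPKM that were called in every fit leaving out a 48 h library and with the siRAD21 OHT libraries averaged, the 2 largest called members of each of 24 lists (the largest member where none was called), and the 3 largest among genes with opposite OHT responses. A few genes picked by this rule or called are not reported here. Gene positions are from GENCODE on GRCh37, to which 22376 symbols were matched, 1222 of them through older names. Promoter windows are from RefSeq. The authors' table of Myc-regulated genes was used for its binding column only.

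Replicate numbers were checked by correlating deviations from group means over 10906 genes. Between siCtrl and siCtrl OHT libraries at 48 h the values were 0.500, 0.357 and 0.265, so the numbers paired these groups. Between siRAD21 and siRAD21 OHT libraries at 48 h the value was 0.026. At 24 h the value was 0.284 between siCtrl and siRAD21 and 0.310 between siCtrl OHT and siRAD21 OHT libraries. Between a group with and a group without OHT at 24 h it was negative, from -0.431 to -0.127, so the numbers did not pair those groups. Alternatives tried were other pseudocounts, filters, thresholds and scalings, a GC and length trend, voom on the recovered reads, the replicate block, fewer libraries, each library left out, a linear scale and, chosen after seeing the data, the removal of duplicates undone.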

Additional observations from a re-analysis of the deposited data

Results flagged for a closer look

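The OHT effect differed between siRAD21 and siCtrl cells at 48 h, by the test of the interaction itself, for 499 genes in the higher and 595 in the lower direction, and the interaction differed between the 2 times for 125 genes. The values below are interactions in log2 at 48 h of the named genes that passed, and the report gives their levels, errors and adjusted p-values.

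The largest higher values were those of CXCL14 (3.39), RGS16 (2.59), DRD1 (2.17), LPL (2.10), MFSD2A (2.09), RGCC (2.06), ROR1 (2.00), KRT14 (1.95), MIR3193 (1.94) and CA12 (1.92). Among genes of replication, the cell cycle, repair and histones the values were those of MCM6 (0.86), ORC1 (0.75), PRIM1 (0.91), CHAF1B (0.83), CCNE2 (0.77), E2F1 (0.76), CENPM (0.66), BLM (0.73), HIST1H2BA (1.48) and HIST1H2BG (0.81). The other higher genes were MXD4 (0.91), SHMT1 (0.67), CHAC1 (1.76), SLC7A11 (1.24), TNFAIP6 (1.05), OASL (1.76), PHLDA1 (1.38), TGFB3 (0.95), STC1 (0.75), MVK (0.64) and DHCR7 (0.62).

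The largest lower values were those of MIR5702 (-2.09), MIR3936 (-1.86), CCL24 (-1.76), PSG5 (-1.72), ALPP (-1.71), TENM2 (-1.69), KCNA1 (-1.67), PSG4 (-1.66), DYSF (-1.57) and IGFL4 (-1.56). The other lower genes were GDF15 (-1.16), CSF1 (-0.73), SAMD9L (-0.71), DUSP5 (-0.60), LTBP2 (-0.90), LAMA5 (-0.85), CDH4 (-1.17), L1CAM (-1.02), INHBA (-1.23), MMP24 (-0.79), MMP9 (-0.75), IGFBP4 (-0.82), PCDHB8 (-0.72) and PCDHB10 (-0.71). TNFAIP6, IGFBP4 and L1CAM were called in 4, 4 and 5 of the 10 fits that left out a library.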

How the results depend on the processing

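The number of genes with a called interaction at 48 h, 1094, became 720 among genes with a mean of at least 5 eRPKM (341 lower), 2587 with no size threshold (1500 higher, 1087 lower) and 200 with a threshold of 1 (81 higher, 119 lower), as fewer or more genes could pass. Leaving out each library gave 827 to 1249 genes. The 4 simple effects at 48 h kept 1653, 2794, 2289 and 1507 genes at a mean of at least 5 eRPKM, for OHT in siCtrl cells, OHT in siRAD21 cells, and siRAD21 without and with OHT. At 24 h the interaction, with 0 genes called, had 12 with a GC and length trend removed, 5 with no filter, 12 with quantile normalization, 3 with replicates 1 and 2 and 18 with voom, and 0 without any library of that time.

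The difference between the times, 125 genes, became 214 with the GC and length trend removed, 72 with median centring, 243 with quantile normalization, 45 with the siRAD21 OHT libraries averaged, 191 with voom, 36 with a threshold of 1, and 51 to 155 when each library was left out. The cause was not tested.

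With the replicate block 1200 genes were called at 48 h (514 higher, 686 lower), 4 at 24 h and 134 for the difference, and no named gene changed its call. With the numbers of the OHT libraries at 24 h crossed in the block, a pairing chosen after seeing the data, 18 and 293 genes were called at 24 h and for the difference.

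The RAD21 interaction at 48 h, near 0, turned sign with quantile normalization (0.11), with replicates 1 and 2 (0.0203) and without siCtrl replicate 3, in a range of -0.0662 to 0.00213 over the libraries left out. On the linear scale CCL24 (1.71 eRPKM), MXD4 (-2.30), L1CAM (8.96) and PCDHB8 (0.413) turned sign. MYC was called in 12 alternatives, between -0.50 and -0.58. Differences of genes with few reads, such as TNFAIP6 and MIR5702, are limited by depth, and intervals for counting error were not needed for group comparisons.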
